A study of Mus musculus with 31 samples.

Results

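Interferon-stimulated genes are the genes that cells switch on when an interferon binds its receptor. Type I interferons (IFN-α and IFN-β) act through IFNAR1 and IFNAR2, and the receptor-bound kinases TYK2 and JAK1 signal to STAT2, which acts with IRF9 at interferon-stimulated response elements (ISRE). IFN-γ acts through IFNGR1 and IFNGR2, JAK1 and JAK2, and its target genes carry gamma-activated sites (GAS); IRF1, made in that response, then acts on ISRE-like sites. Many genes answer to both, so a gene's class is a leaning and not proof of which interferon acted. The 42 genes described here were taken from 39179 genes in the count table by symbol, and each symbol matched 1 gene. Textbook knowledge put 28 of them with type I interferon (*Stat2*, *Irf7*, *Irf9*, *Isg15*, *Usp18*, *Ifit1*, *Ifit2*, *Ifit3*, *Oas1a*, *Oas2*, *Oas3*, *Oasl1*, *Oasl2*, *Mx1*, *Mx2*, *Rsad2*, *Bst2*, *Ifi44*, *Ifi35*, *Ddx58*, *Ifih1*, *Dhx58*, *Xaf1*, *Zbp1*, *Trim25*, *Parp14*, *Rtp4* and *Cmpk2*). The other 14 were put with IFN-γ (*Irf1*, *Irf8*, *Gbp2* to *Gbp7*, *Iigp1*, *Irgm1*, *Irgm2*, *Igtp*, *Tgtp1* and *Socs1*).

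The RNA came from 31 libraries of the mouse melanoma line 20967 in 8 groups, named here by genotype and treatment. Parental and glucocorticoid receptor (GR) knockout (GR KO) cells grew as intradermal tumors in wild-type C57BL/6 mice, with 5 tumors in each of 4 groups, and mice received control cream or clobetasol propionate 0.05% ointment 3 times a week (GC). The same cells were cultured for 48 h in DMSO or clobetasol propionate (GC; 3 parental DMSO, 2 parental GC, 3 GR KO DMSO and 3 GR KO GC cultures). The culture dose is 10 µM in the treatment label, as in the general culture methods, and 1 µM in the library names. GR KO is 1 clone, so genotype and clone cannot be told apart in any comparison. The line came from a C57BL/6 mouse with oncogenic *Nras* (G12D) and Tyr::CreERT2. Neither the time of tumor harvest nor whether the cultures of a group, whose names all bear the same date, were grown independently is stated, so p values between cultures may measure technical spread. A tumor holds cancer cells and host cells, and its value mixes the cells' numbers with the RNA of each cell. Fewer cells of a type and less RNA per cell cannot be told apart in these values. GC given to the mouse reaches host cells, whose GR is intact in both kinds of tumor; only in culture does GC act on cancer cells alone.

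The libraries are 3′ tag counts, 15528066 to 26386770 reads per tumor and 14441166 to 22463188 per culture, so CPM (counts per 1e6 counted reads) can be set beside each other between genes as numbers of transcripts. A count of 3, taken as the floor of detection, was 0.112 to 0.220 CPM in tumors and 0.136 to 0.207 in cultures. A differentially expressed gene (DEG) had an edgeR adjusted p under 0.05 over all genes tested and a fold of at least 1.5, and passing, rising or falling means being a DEG. All log2 fold changes are from edgeR unless DESeq2 is named, SE is the standard error of the log2 value, and 2 values in brackets are log2 fold change and adjusted p. Values of the libraries of a group follow in the order of their numbers, and in culture DMSO precedes GC. The fit of the 20 tumors tested 15919 genes with all 42 members, and the fit of the 11 cultures 12525 genes with 32 members. The 10 members too low to test in culture were *Oas1a*, *Oas2*, *Mx1*, *Mx2*, *Zbp1*, *Gbp3*, *Gbp4*, *Gbp5*, *Gbp6* and *Tgtp1*.

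*Nr3c1*, which encodes GR, was read in every library. *Nr3c1* read 63.4, 57.1, 44.9, 55.6 and 52.2 CPM in parental control, 53.4, 24.4, 48.2, 37.3 and 49.8 in parental GC, 20.7, 27.3, 31.4, 31.8 and 23.5 in GR KO control and 47.9, 21.7, 58, 32.5 and 49.4 in GR KO GC tumors. In culture *Nr3c1* was 33.2, 30 and 35.6, then 39.5 and 33.4 (parental), and 24.8, 21 and 16.4, then 20.9, 22.5 and 13.1 (GR KO). *Nr3c1* was lower in GR KO control tumors (log2 fold change -1.02, SE 0.243, adjusted p 0.0313) and in GC cultures (-0.95, adjusted p 0.0384), and passed in neither GC tumors (-0.02, 0.981) nor DMSO cultures (-0.67, 0.0840). The control value was -0.71 (adjusted p 0.989) without *Gm26924*-rich tumors, described next. Transcripts of the edited gene were therefore still present. A 3′ tag need not cover an edit, so these counts do not show whether GR was lost. The paper checked GR protein in single clones by western blot. In culture GC gave 110 DEGs of 12525 genes in parental and 0 in GR KO cells.

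6 tumors carry a high share of reads on 1 gene, *Gm26924*, and tests were repeated without these *Gm26924*-rich tumors. *Gm26924* held 5.55% of the reads of parental control tumor 1, 11.6%, 8.97%, 6.57% and 16.3% of GR KO control tumors 1, 2, 3 and 5, and 6.65% of GR KO GC tumor 4. It held 0.248% in GR KO control tumor 4 and at most 2.89% in the remaining tumors, and 1.65% to 4.14% in cultures. Its gene identifier is named *Gm42418* in a later annotation, at chr17:39846958-39848788 (GRCm38), a stretch that overlaps the 18S ribosomal RNA pseudogene *Rn18s-rs5*. Leaving these 6 tumors out leaves 4 parental control, 5 parental GC, 1 GR KO control and 4 GR KO GC tumors, so most of the GR KO control group and most of its power go with them. The spread then comes from the other groups, and a call lost there does not show that it rested on these tumors. The source of the high share was not tested.

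Summed over the 28 type I members, the level per tumor was 2750.2, 1785, 1388, 2634 and 1359 CPM in parental control and 1698, 1063, 579.9, 1605 and 774 in parental GC tumors. GR KO control tumors held 3453, 4828, 3527, 5056 and 3542 CPM and GR KO GC tumors 2728, 3569, 2310.0, 1562 and 2068. Every GR KO control tumor was above every parental control tumor. The 14 IFN-γ members summed to 1028, 1159.7, 839, 1237 and 939 CPM in parental control, 1238, 511, 779.5, 675 and 639.9 in parental GC, 1211, 1601, 1413, 2144 and 1153 in GR KO control and 1325, 1379, 1156, 668 and 1055 in GR KO GC tumors. These overlapped between all 4 groups. In culture the type I sums were 194, 202 and 194 CPM (parental DMSO), 167 and 194 (parental GC), 119, 109 and 108 (GR KO DMSO) and 111, 129.5 and 127 (GR KO GC), and the IFN-γ sums 70.4, 49.9 and 73.4, then 46.5 and 45.5, then 37.8, 38.4 and 38.9, then 28.2, 35.7 and 27.3 in the same order. Here the order turned over: every parental culture was above every GR KO culture in both sums.

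**Figure D1:**
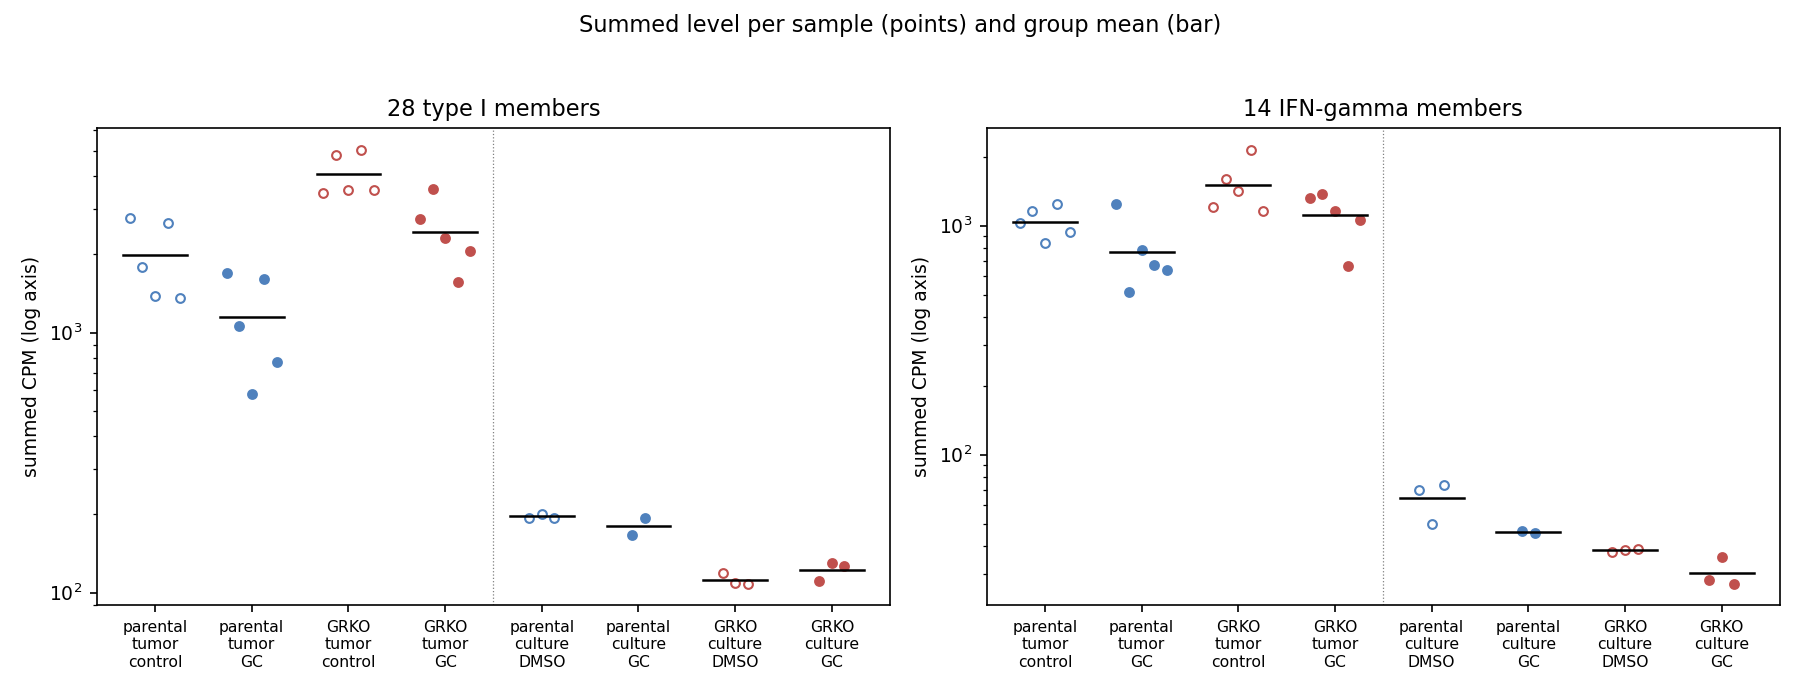
Summed CPM of the 28 type I and 14 IFN-γ members in each library. Type I sums ran from 1359 to 2750 CPM in parental control tumors and 3453 to 5056 in GR KO control tumors.

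Host and cancer-cell expression were approached by setting control tumors beside DMSO cultures of the same genotype in 1 fit of all 31 libraries (16273 genes). In parental, 40 of 42 members were higher in tumors (30.4% of all genes tested were) and 0 lower, with a median log2 fold change of 4.34 beside 0.37 over all genes. In GR KO, 41 of 42 members were higher (34.2%), with a median of 7.49 beside 0.33. With members of 0 reads in culture entered as bounds the medians were 4.20 and 6.22. The 10 members too low to test in culture passed the filter only through tumors, and this favored a higher tumor value for them. Of the 32 members that could be tested in culture, 31 were higher in tumors in each genotype (medians 3.80 and 5.88). The counts were 39 and 42 without *Gm26924*-rich tumors. The members that passed in neither or only 1 genotype were *Socs1*, in neither, and *Tgtp1*, in GR KO only. As a share of the tumor level, the median member stood at 4.89% in parental cultures (type I 6.05%, IFN-γ 2.12%) and 0.530% in GR KO cultures. In parental, 22 members were under 5% and 4 over 25%; in GR KO, 34 were under 5% and 2 over 25%, and 7 had no read in any DMSO culture. Cells in culture may hold less of these RNAs than the same cells in a tumor, so a low culture level does not assign the tumor level to host cells. A culture level near the tumor level shows that the cancer cells carry the transcript unaided.

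**Figure D2:**
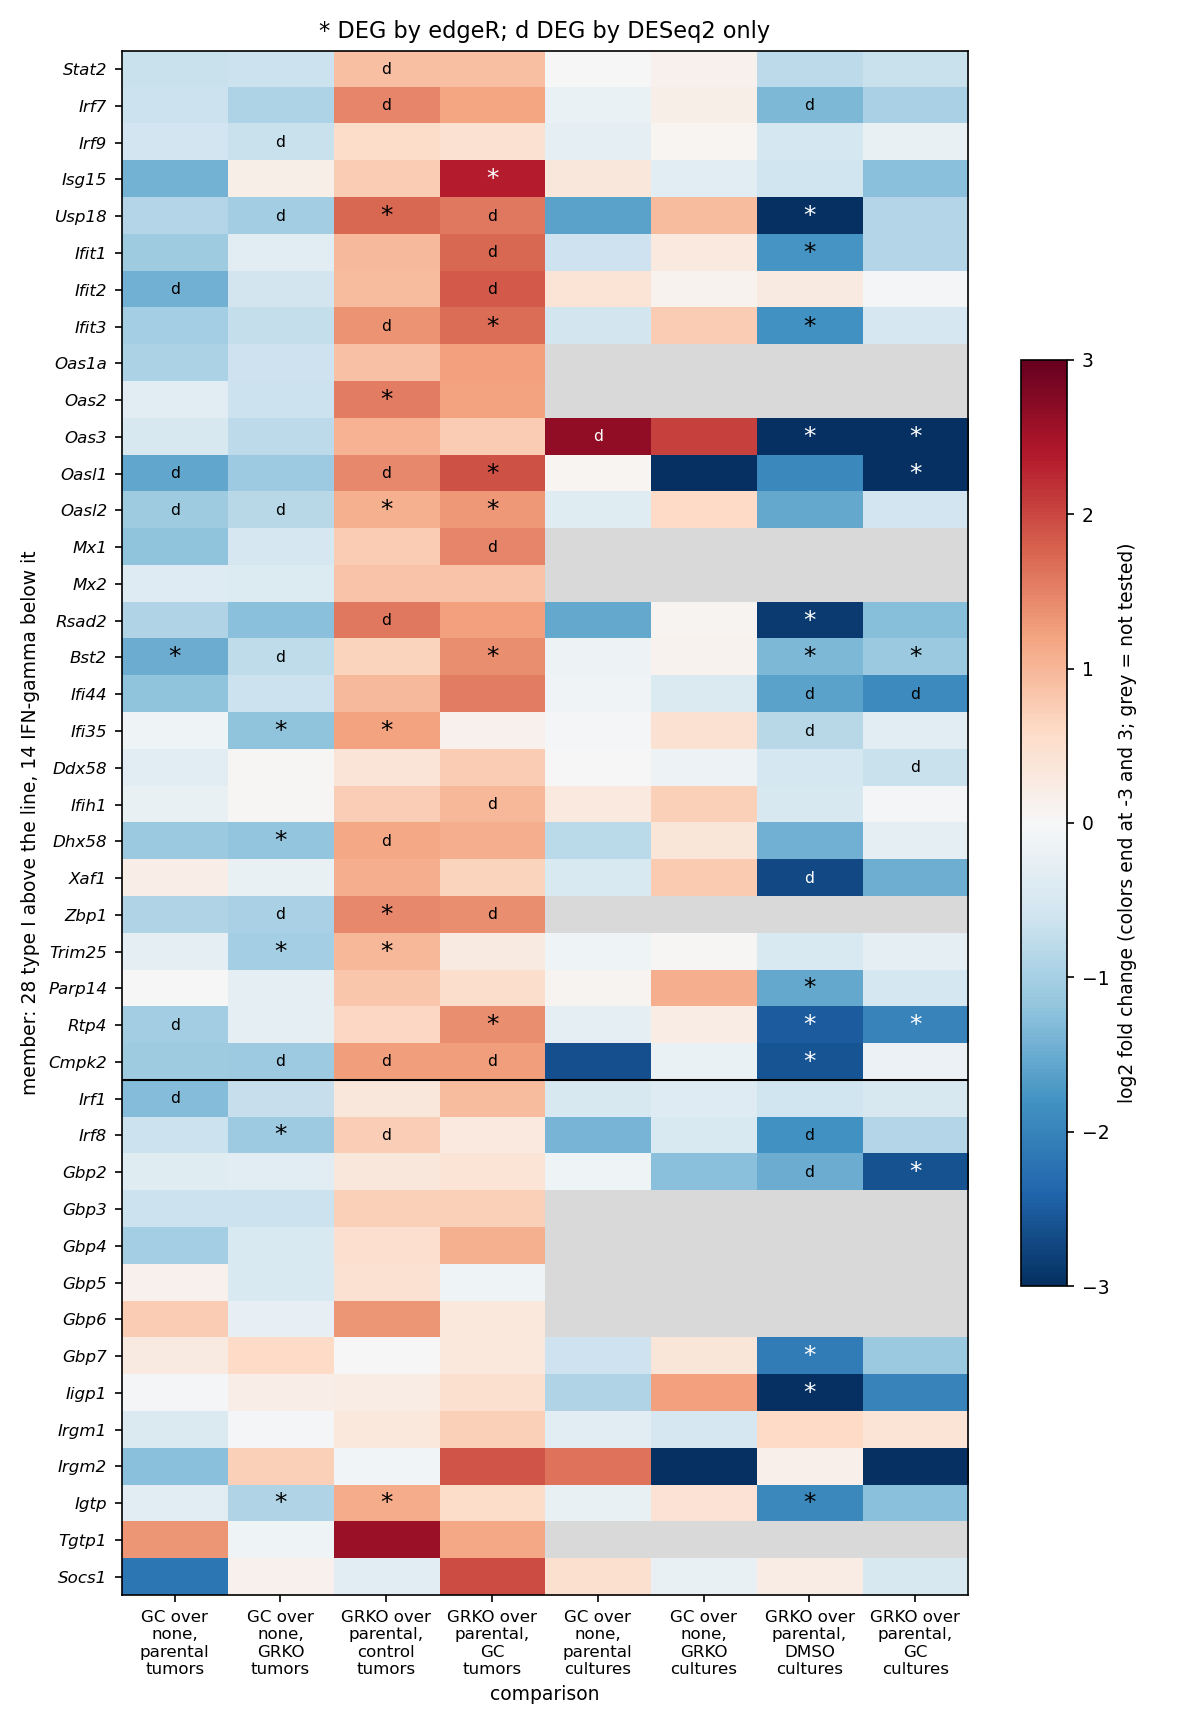
Log2 fold change of each member in the 8 drug and genotype comparisons. Among tumors without GC, *Usp18* was 1.73 in GR KO over parental, and among cultures without GC it was -3.41.

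8 comparisons within tumors or within cultures ask what GC or the knockout changes. GC over control cream in parental tumors gave 1 member DEG, lower (0.345% of genes tested were lower and 0.433% higher DEGs), and DESeq2 gave 6 (2.36% of genes in either direction), all lower. Of the 42, 36 had a lower value (49.7% of all genes; 50.2% a higher one) and 19 were lower at an unadjusted p under 0.05 (14.1% of all genes in either direction), and the median was -0.65 (type I -0.91, IFN-γ -0.41) beside 0.00 over all genes. In 3 members every GC tumor was below every control tumor (1.71%). Leaving out parental GC tumor 1 took the count of DEGs from 1 to 7, all lower, adding *Oasl1*, *Oasl2*, *Isg15*, *Rtp4* and *Irf1* among others. DEGs of all genes then went from 124 to 139. Without *Gm26924*-rich tumors the count stayed 1 and the type I median was -0.66.

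GC over control cream in GR KO tumors gave 5 lower DEGs (3.71%, and 6.42% in either direction) and no higher one, and DESeq2 gave 11 (11%), all lower. Here 35 members were lower (47.2%), and the medians were -0.62 over members (type I -0.66, IFN-γ -0.28, or -0.02 without GR KO control tumor 4) and 0.05 over all genes. In 5 members every GC tumor was below every control tumor (2.41%). Without *Gm26924*-rich tumors no member was a DEG, with medians of -0.91 (type I) and -0.76 (IFN-γ), and 29 genes of all those tested were; that comparison holds 1 control tumor. With the log2 share of *Gm26924* as a covariate 2 members were DEGs, as were 626 of the 15919 genes tested. The count ran from 1 to 9 as single tumors were left out. It was 9 without GR KO GC tumor 2, as DEGs of all genes went from 1022 to 1067. In the difference between the 2 GC effects 0 members were DEGs with edgeR (0.195% of genes tested were) and 0 with DESeq2 (4.92%), 1 was higher and 1 lower at an unadjusted p under 0.05 (20.1% were either), and the smallest adjusted p was 0.179 (*Ifi35*). Leaving out GR KO control tumor 4 made *Isg15* a DEG in it (-2.24, 0.0437), as DEGs of all genes went from 31 to 1284.

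GR KO over parental in control tumors gave 7 higher DEGs (1.26%; 2.25% in either direction) and 0 lower, DESeq2 gave 15 (6.29%), and 24 members were higher at an unadjusted p under 0.05 (20% of all genes in either direction). 40 members had a higher value (47.3%), with a median of 0.89 (type I 0.98, IFN-γ 0.40) beside -0.04 over all genes. In 11 members every GR KO tumor was above every parental tumor (1.94%), and 10 of these were type I. Leaving out parental control tumor 2, 3, 4 or 5 or GR KO control tumor 1 or 2 left 0 DEGs, leaving out GR KO control tumor 3 or 5 left 4, and leaving out GR KO control tumor 4 gave 12, as DEGs of all genes went from 358 to 1762. Without *Gm26924*-rich tumors there were 0 DEGs among members and among all genes, and the medians, resting on GR KO control tumor 4, were 1.56 (type I) and 1.01 (IFN-γ); with the share as a covariate there were 0 among members. Type I medians stayed at 0.86 or above under all 19 alternatives while the calls did not hold, and the IFN-γ median was 0.04 without GR KO control tumor 4.

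GR KO over parental in GC tumors gave 6 higher DEGs (0.195%; 0.44% were lower) and 0 lower, and DESeq2 gave 13 (1.84%). 41 members had a higher value and 1 a lower (50.8% and 49.2% of all genes), with a median of 1.07 (type I 1.23, IFN-γ 0.63) beside 0.01, and in 5 every GR KO tumor was above every parental tumor (1.53%). There were 8 without *Gm26924*-rich tumors (170 of 15513 genes tested), with 5 parental and 4 GR KO GC tumors left. There were 10 with the covariate (225 of 15919). Leaving out parental GC tumor 2 or 5 left 0, and GR KO GC tumor 1 or 2 left 1. Without GR KO GC tumor 3 or 5 there were 2, and without parental GC tumor 3 there were 3. Leaving out parental GC tumor 1 gave 12, as DEGs of all genes went from 101 to 114. Higher type I members in GR KO tumors were thus seen with and without GC, and in the GC groups this does not rest on *Gm26924*-rich tumors.

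In culture GC gave 0 member DEGs of 32 tested in parental cells (0.878% of genes tested were DEGs); DESeq2 gave 1, higher (2%), and 1 member was higher and 2 lower at an unadjusted p under 0.05 (8.48% were either; 0.263% of genes were lower DEGs). In GR KO cells GC gave 0 with edgeR and 0 with DESeq2 (0% of genes tested), with 2 higher and 2 lower at an unadjusted p under 0.05 (1.89% either), and 21 of 32 had a higher value (53.1%). The difference between these effects gave 0 with edgeR (0.295% of genes tested) and 0 with DESeq2 (1.02%). At an unadjusted p under 0.05, 0 members were higher and 1 lower (8.58% of genes were either). In parental cells 9 members were lower (14%) and 3 higher (13.8%) in both GC cultures than in all DMSO cultures, and the IFN-γ sums were lower without overlap. With 3 and 2 cultures in parental and low counts, an effect of moderate size could go unseen.

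GR KO over parental in DMSO cultures gave 12 lower DEGs (6.04%; 2.18% were higher and 8.22% either) and 0 higher, and DESeq2 gave 18 (11.4%). 28 of 32 had a lower value and 4 a higher (48.8% and 51.2% of all genes), with a median of -1.50 (type I -1.53, IFN-γ -1.48) beside 0.01 over all genes. With at least 10 counts in every sample, which left 18 members, the type I median was -0.82. Every GR KO culture was below every parental culture in 24 members (17.5%) and above in 1 (15%), *Irgm1*. GC cultures gave 5 lower DEGs (3.78%; 1.76% were higher) and 0 higher, DESeq2 7 (7.86%), with 31 of 32 lower (48.1%) and a median of -0.87 (type I -0.67, IFN-γ -1.12) beside 0.02. Every GR KO culture was below every parental culture in 16 members (16.8%). The smallest exact permutation p that 3 and 3 cultures allow is 0.1. Leaving out cultures in turn gave 4 to 8 DEGs in DMSO and 2 to 5 in GC.

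DESeq2 passed every member that edgeR passed in these comparisons, and further ones. In GC over control these were *Ifit2*, *Oasl1*, *Oasl2*, *Rtp4* and *Irf1* (parental tumors), *Irf9*, *Usp18*, *Oasl2*, *Bst2*, *Zbp1* and *Cmpk2* (GR KO tumors) and *Oas3* (parental cultures). In genotype they were *Stat2*, *Irf7*, *Ifit3*, *Oasl1*, *Rsad2*, *Dhx58*, *Cmpk2* and *Irf8* (control tumors) and *Usp18*, *Ifit1*, *Ifit2*, *Mx1*, *Ifih1*, *Zbp1* and *Cmpk2* (GC tumors). In culture they were *Irf7*, *Ifi44*, *Ifi35*, *Xaf1*, *Irf8* and *Gbp2* (DMSO) and *Ifi44* and *Ddx58* (GC).

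Medians of the genotype difference therefore had opposite signs in tumors and in culture. A contrast added after the data were seen tested whether the fold changes differ, by subtracting the culture log2 fold change from that of the control tumors. It gave 22 higher DEGs (4.25%), 18 type I and 4 IFN-γ, and 0 lower, 21 of them among the 32 tested in culture; DESeq2 gave 27 (8.51%). Its median was 2.56 (type I 2.79, IFN-γ 1.98) beside 0.00 over all genes. Without parental DMSO 3 the IFN-γ median was 1.09. With *Gm26924*-rich tumors left out, leaving 1 GR KO control tumor, 15 of the 22 passed (2.17 to 7.80) and *Gbp2* was added; *Stat2*, *Oas2*, *Oasl1*, *Ifi35*, *Xaf1*, *Trim25* and *Parp14* were lost, all still above 0. Leaving out single libraries gave 15 to 26. *Irf7*, *Usp18*, *Ifit3*, *Oasl2*, *Rsad2*, *Bst2*, *Rtp4*, *Cmpk2*, *Irf8* and *Igtp* passed under every alternative that tested them. The fit with at least 10 counts in every sample tested only 17 members. Tumors and cultures differ in host cells, growth and preparation, and which of these makes the difference was not tested. Only *Usp18* and *Igtp* were DEGs in both control tumors and DMSO cultures.

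**Figure D3:**
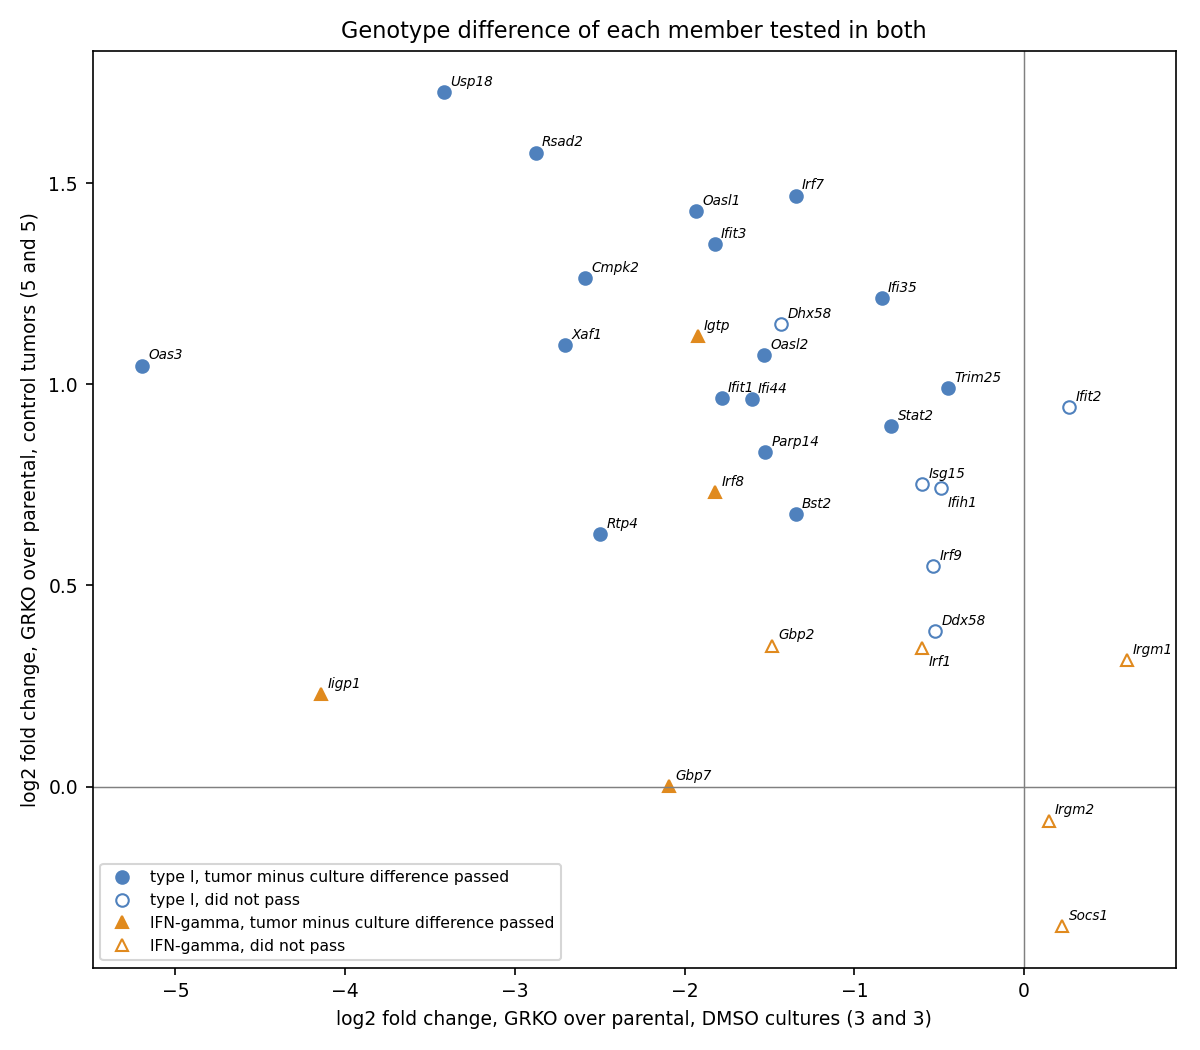
Log2 fold change of GR KO over parental in DMSO cultures and in control tumors for the 32 members tested in both. *Rsad2* was -2.88 in culture and 1.58 in tumors.

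Interferon RNA was low or unread. *Ifnb1*, *Ifna1*, *Ifna2* and *Ifna4* had 0 reads in all 31 libraries. *Ifng* read 1.66, 3.93, 2.78, 2.76 and 1.53 CPM in parental control, 1.48, 0.209, 0.442, 1.33 and 1.25 in parental GC, 1.03, 1.49, 1.3, 4.71 and 0.369 in GR KO control and 1.52, 0.485, 0.854, 0 and 0.954 in GR KO GC tumors. No culture held a read of *Ifng*. Every parental GC tumor was below every parental control tumor (1.71% of genes tested were), with 1.48 CPM against 1.53 at the edge. The exact permutation p was 0.00794, unadjusted and the smallest that 5 and 5 tumors allow. With edgeR *Ifng* did not pass (-1.42, adjusted p 0.436). *Ifng* is known as a product of T and NK cells, whose markers cultures lacked as well. The receptor *Ifngr1* was 214 to 341 CPM in tumors and 31 to 53.0 in cultures. The interferon receptor chains *Ifnar1* (6.69 to 22.0 CPM in tumors, 2.53 to 6.90 in cultures) and *Ifnar2* (20 to 52.6 and 9.74 to 13.3) were read in every library too. Cells of both genotypes thus carried transcripts of *Ifngr1*, *Ifnar1* and *Ifnar2*. RNA of the 4 type I ligands read was not seen at this depth.

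*Tmem173*, the receptor of the DNA-sensing pathway upstream of IFN-β, held 65.9 to 142 CPM in tumors, 25.3 to 44.1 in parental and 14.7 to 23 in GR KO cultures. It was lower in GR KO DMSO cultures (-1.05, 0.00985), and the difference between tumors and cultures passed (1.56, 0.000943).

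*Tlr3*, an endosomal sensor of double-stranded RNA, was the only gene of the 23 ligands, receptors, transducers and sensors tested in tumors to be a DEG of genotype there. It held 10.1 to 21.5 CPM in parental and 14.1 to 49.6 in GR KO tumors, 1.93 to 4.16 in parental and 0.505 to 1.65 in GR KO cultures. It was higher in GR KO control tumors (1.02, 0.0485) and passed in the difference (2.61, 0.0014). The tumor value was 1.38 (adjusted p 0.484) without *Gm26924*-rich tumors. Of the 21 genes of this list tested in culture, only *Tmem173* fell in a genotype comparison, and only *Ptpn2* was higher.

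STAT2 and IRF9 act together after type I interferon. *Stat2* read 59.8, 49.7, 42.6, 67.7 and 31.6 CPM in parental control, 45.5, 26.4, 18.3, 46.5 and 22.7 in parental GC, 52.7, 108, 109, 104 and 93.7 in GR KO control and 62.8, 79, 59.3, 39.8 and 56.5 in GR KO GC tumors. In culture *Stat2* was 4.94, 6.16 and 7.7, then 9.04 and 3.71 (parental), and 3.06, 4.2 and 3.66, then 4.45, 2.84 and 4.67 (GR KO). GR KO control tumor 1, at 52.7 CPM, was far from the other 4 of its group, all above every parental control tumor. *Stat2* passed in no comparison within tumors or within cultures with edgeR (control tumors 0.90, 0.0766), and the difference between them passed (1.68, 0.0284). That call was lost without parental DMSO 2 or 3 or GR KO DMSO 1 or 3 (1.51 to 1.70, adjusted p 0.0595 to 0.091). *Irf9* read 223, 142, 142, 229.6 and 135 CPM in parental control, 136, 115, 79.5, 172 and 86.5 in parental GC, 319, 269, 177, 271 and 236 in GR KO control and 171, 233, 131, 126 and 145 in GR KO GC tumors. In culture *Irf9* was 14.8, 19.7 and 16.5, then 12.5 and 15.7 (parental), and 11.2, 12 and 12, then 10.3, 12.7 and 13.3 (GR KO). The tumor groups compared overlapped, while every GR KO DMSO culture was below every parental one. *Irf9* passed in no drug or genotype comparison with edgeR (control tumors 0.55, 0.197, GC in GR KO tumors -0.66, 0.0891). Leaving out GR KO GC tumor 2 made it a DEG of GC in GR KO tumors (-0.83, 0.0416). The difference became one without parental control 1 or 4 or GR KO control 3 or 4 (1.08 to 1.23, adjusted p 0.0388 to 0.0485).

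IRF7 drives the later, amplifying wave of type I interferon. *Irf7* read 189, 100.2, 60.9, 118 and 61 CPM in parental control, 94.1, 54.6, 16.6, 143 and 29.9 in parental GC, 199, 389, 323, 307 and 246 in GR KO control and 130.0, 232, 173, 112 and 125 in GR KO GC tumors. In culture *Irf7* was 3.71, 3.33 and 3.88, then 2.14 and 4.11 (parental), and 1.51, 1.48 and 1.29, then 2, 0.615 and 2.27 (GR KO). Every GR KO control tumor was above every parental control tumor, and every GR KO DMSO culture below every parental DMSO culture. Neither passed alone with edgeR (tumors 1.47, 0.0598; cultures -1.35, 0.0913), but the difference did (2.82, 0.0132). *Irf7* became a DEG of genotype in control tumors without parental control 1 or GR KO control 4 (1.45 to 1.78, adjusted p 0.0352 to 0.0466). GC left *Irf7* without a call in parental (-0.65, 0.491) and GR KO tumors (-0.92, 0.165).

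USP18 strips ISG15 from proteins and blocks IFNAR2, which makes it the brake of the type I response. *Usp18* read 43.9, 18.6, 17.9, 33 and 16.5 CPM in parental control, 23.3, 8.06, 4.95, 25.3 and 8.78 in parental GC, 82.5, 122, 94.8, 75.7 and 54.1 in GR KO control and 53.4, 56.3, 39.5, 26.1 and 34.4 in GR KO GC tumors. In culture *Usp18* was 2.08, 2.65 and 1.59, then 0.552 and 0.814 (parental), and 0.208, 0 and 0.377, then 0.0571, 0.378 and 0.694 (GR KO). Every GR KO control tumor was above every parental control tumor, and the same held in GC tumors. *Usp18* rose in control tumors (log2 fold change 1.73, SE 0.382, adjusted p 0.026) and fell in DMSO cultures (-3.41, 0.0397), and the difference was 5.16, 0.000109. In GC tumors it did not pass (1.57, 0.0522), and it did without parental GC 1 or 4 or GR KO GC 4 (1.70 to 1.89, adjusted p 0.0299 to 0.0449). The control value was 1.83, 0.593 without *Gm26924*-rich tumors. The call in control tumors was lost without any 1 of 6 of the 10 libraries (1.56 to 1.83, adjusted p 0.0522 to 0.0737), and that in cultures without any 1 of 6 of the 6 libraries (-4.29 to -2.82, adjusted p 0.0527 to 0.115). GC gave no call in either genotype with edgeR.

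ISG15 is the ubiquitin-like protein that USP18 removes. *Isg15* read 44.7, 34.1, 37.2, 68.6 and 28.9 CPM in parental control, 44.8, 6.39, 11, 8.67 and 8.61 in parental GC, 38.2, 43.5, 67, 175 and 35.5 in GR KO control and 117, 74.3, 78.9, 20.3 and 116 in GR KO GC tumors. In culture *Isg15* was 8.52, 3.39 and 9.05, then 9.93 and 7.73 (parental), and 4.31, 6.21 and 3.28, then 7.19, 2.69 and 1.2 (GR KO). Parental GC tumor 1 stood far above its 4 fellows, and GR KO GC tumor 4, which is rich in *Gm26924*, far below its own. *Isg15* was higher in GR KO over parental GC tumors (log2 fold change 2.35, SE 0.535, adjusted p 0.036), and without *Gm26924*-rich tumors the value was 2.59, 0.0151. That call was lost without any 1 of 8 of the 10 libraries (2.15 to 2.38, adjusted p 0.0573 to 0.115). GC in parental tumors did not pass (-1.43, 0.209), and without parental GC 1 (-2.30, adjusted p 0.0212) it did. *Isg15* passed in no culture comparison with all libraries (DMSO genotype -0.60, 0.518, GC genotype -1.25, 0.321), and the GC genotype comparison passed without GR KO GC 1 (-2.16, adjusted p 0.0338).

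The IFIT proteins bind viral RNA and stop its translation. *Ifit1* read 87.6, 69.8, 44.3, 111 and 37.2 CPM in parental control, 70.4, 23, 16, 38.81 and 18.2 in parental GC, 114, 139, 90.1, 264 and 74.9 in GR KO control and 144, 172, 107, 46.9 and 81.1 in GR KO GC tumors. In culture *Ifit1* was 7.16, 7.21 and 8.05, then 4.62 and 5.06 (parental), and 1.56, 3.58 and 1.35, then 3.59, 3.17 and 1.14 (GR KO). Cultures split by genotype, with no overlap under either treatment, and tumors did not. *Ifit1* fell in GR KO DMSO cultures (-1.78, 0.0293), lost without any 1 of 5 of the 6 libraries (-1.81 to -1.53, adjusted p 0.0645 to 0.114), and the difference from tumors was 2.76, 0.0174, lost without GR KO DMSO 1 or 3 (2.51 to 2.58, adjusted p 0.0683 to 0.0688). In GC tumors the genotype difference did not pass (1.73, 0.0558; without *Gm26924*-rich tumors 1.92, 0.0304), and it passed without parental GC 1 or GR KO GC 4 (1.92 to 2.20, adjusted p 0.0114 to 0.0294). *Ifit3* read 187, 129.7, 57.3, 173 and 77.9 CPM in parental control, 105, 64.7, 23.2, 56.9 and 55.7 in parental GC, 190.1, 368, 193, 479.5 and 361 in GR KO control and 216, 310.2, 195, 126 and 126 in GR KO GC tumors. In culture *Ifit3* was 5.92, 5.3 and 6.52, then 4 and 4.02 (parental), and 2.65, 0.859 and 1.51, then 2.85, 1.84 and 3.85 (GR KO). Both tumor genotype comparisons were without overlap, and so were both in culture. *Ifit3* rose in GR KO over parental GC tumors (1.67, 0.0305; without *Gm26924*-rich tumors 1.79, 0.0272) and fell in DMSO cultures (-1.82, 0.0165), with a difference of 3.18, 0.00135. The first call was lost without any 1 of 7 of the 10 libraries (1.44 to 1.69, adjusted p 0.0733 to 0.0902) and the second without GR KO DMSO 2 or 3 (-1.76 to -1.50, adjusted p 0.0601 to 0.0624). In control tumors *Ifit3* was 1.35, 0.0526, and passed without GR KO control 4 (1.15, adjusted p 0.0485).

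*Ifit2* behaved otherwise. *Ifit2* read 10.8, 6.91, 7, 9.69 and 7.6 CPM in parental control, 5.21, 0.262, 5.13, 2.31 and 2.56 in parental GC, 19.8, 7.95, 15.9, 23.1 and 14 in GR KO control and 15, 9.49, 9.4, 9.27 and 12.1 in GR KO GC tumors. In culture *Ifit2* was 1.24, 3.76 and 5.05, then 4.35 and 4.52 (parental), and 5.19, 4.15 and 2.75, then 4.28, 4.68 and 4.04 (GR KO). Every parental GC tumor was below every parental control tumor and below every GR KO GC tumor. With edgeR neither passed (GC -1.43, 0.145; genotype 1.83, 0.0564). The genotype difference in GC tumors passed without parental GC 1 (2.10, adjusted p 0.0436). Its cultures held 41.1% (parental) and 25.5% (GR KO) of the control tumor level, a difference that in parental was lost without any 1 of 5 of the 8 libraries (0.89 to 1.37, adjusted p 0.0552 to 0.215), so the cancer cells carry *Ifit2* without an added interferon.

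The OAS enzymes make 2′,5′-oligoadenylates that switch on RNase L. *Oas2* read 24.4, 7.82, 10, 20.6 and 7.68 CPM in parental control, 18.2, 6.54, 4.73, 19.6 and 7.81 in parental GC, 28.4, 51.7, 33, 53.3 and 37.6 in GR KO control and 27.2, 35, 26.1, 18.6 and 24.3 in GR KO GC tumors. In culture *Oas2* was 0.455, 0.123 and 0.0588, then 0.069 and 0.678 (parental), and 0, 0 and 0, then 0, 0.331 and 0 (GR KO). Every GR KO control tumor was above every parental control tumor. *Oas2* rose there (1.54, 0.0348; without *Gm26924*-rich tumors 2.22, 0.425), a call lost without any 1 of 7 of the 10 libraries (1.38 to 1.72, adjusted p 0.0537 to 0.0965). With 0 reads in the GR KO DMSO cultures the size of the fitted difference from culture (6.61, 0.0315) is uncertain, and the call was lost without parental DMSO 1 or GR KO DMSO 1, 2 or 3 (5.47 to 6.62, adjusted p 0.072 to 0.191).

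*Oas3* read 97.7, 76.5, 31.4, 152 and 27.4 CPM in parental control, 93.2, 41.9, 15.9, 91.1 and 32 in parental GC, 100.4, 152, 62, 412 and 68.2 in GR KO control and 144, 163, 93.9, 18.5 and 43.9 in GR KO GC tumors. In culture *Oas3* was 0.976, 0.924 and 0.705, then 3.93 and 7.14 (parental), and 0, 0.0477 and 0, then 0.228, 0.0473 and 0 (GR KO). *Oas3* overlapped between all tumor groups, and in culture all GR KO values were below all parental ones. It fell in GR KO DMSO cultures (-5.20, 0.0072; 1 count in 3 cultures against 42 in 3) and in GC cultures (-5.81, 0.0013). Both calls held under every alternative that tested *Oas3*. Fits with at least 10 counts in every sample left this gene out. So did the fit of the GC cultures alone, where it did not reach 0.5 CPM in 3 samples. DESeq2 called it alone of the members under GC in parental cultures, where both GC cultures were above all DMSO cultures; edgeR did not (2.67, 0.127). The difference of genotype between tumors and culture was 6.29, 0.038, lost without any 1 of 7 of the 16 libraries (5.86 to 8.17, adjusted p 0.0501 to 0.108).

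OASL proteins resemble OAS. *Oasl1* read 30.8, 21.6, 14.7, 29.9 and 17.4 CPM in parental control, 13.8, 7.17, 0.884, 12.3 and 4.67 in parental GC, 60.6, 77.5, 52.2, 73.9 and 43.9 in GR KO control and 33.6, 41.3, 33.1, 13.7 and 23.9 in GR KO GC tumors. In culture *Oasl1* was 0.781, 2.03 and 0.823, then 1.59 and 0.949 (parental), and 0.623, 0 and 0.323, then 0, 0.0473 and 0 (GR KO). In control tumors every GR KO value was above every parental one, and GC tumors were below control tumors without overlap in both genotypes. *Oasl1* rose in GR KO over parental GC tumors (1.91, 0.036; without *Gm26924*-rich tumors 2.09, 0.0431), lost without any 1 of 6 of the 10 libraries (1.75 to 1.97, adjusted p 0.0712 to 0.113), and did not pass in control tumors (1.43, 0.0734). GC in parental tumors was -1.56, 0.0948, passing without parental GC 1 (-1.87, adjusted p 0.0486), and in GR KO tumors -1.08, 0.117. It fell in GR KO GC cultures (-5.66, 0.0308; 1 count against 44), lost without any 1 of 5 of the 5 libraries (-7.49 to -5.24, adjusted p 0.0655 to 0.137). The difference of genotype was 3.38, 0.0225, lost without parental DMSO 2 or GR KO DMSO 2 or 3 (2.79 to 3.40, adjusted p 0.058 to 0.14).

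*Oasl2* read 148, 98.9, 92, 153 and 90.5 CPM in parental control, 91.2, 45.6, 28.3, 68.1 and 45.8 in parental GC, 190.4, 286, 263, 289.8 and 198 in GR KO control and 153, 188, 119.7, 102 and 129.7 in GR KO GC tumors. In culture *Oasl2* was 1.95, 0.801 and 2.47, then 1.38 and 1.31 (parental), and 1.09, 0.382 and 0.323, then 0.685, 0.709 and 1.33 (GR KO). GR KO tumors were above parental tumors without overlap, with and without GC. *Oasl2* was the only member that rose in both tumor genotype comparisons, control (log2 fold change 1.07, SE 0.259, adjusted p 0.0331) and GC (1.31, 0.0152). These were 1.43, 0.555 and 1.40, 0.022 without *Gm26924*-rich tumors. The control call was lost without any 1 of 7 of the 10 libraries (0.99 to 1.20, adjusted p 0.0556 to 0.0927), and the GC call without parental GC 2 or 5 (1.25, adjusted p 0.0521 to 0.0552). GC gave -1.06, 0.0526 in parental tumors, passing without parental GC 1 (-1.31, adjusted p 0.0126), and -0.83, 0.0551 in GR KO tumors, passing without GR KO GC 2 (-0.96, adjusted p 0.0372). Cultures held little *Oasl2*, and the difference from tumors was 2.61, 0.00307.

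MX proteins trap viral nucleocapsids. *Mx1* read 29.8, 13.1, 12.1, 22.2 and 9.5 CPM in parental control, 16.1, 3.66, 2.12, 8.86 and 6.95 in parental GC, 14.4, 25.1, 24.5, 51.7 and 30.8 in GR KO control and 25.9, 23.9, 25.4, 13.5 and 15.5 in GR KO GC tumors. In culture *Mx1* was 0.0651, 0 and 0, then 0 and 0 (parental), and 0 in all GR KO cultures. *Mx1* was a tumor transcript, with 1 count in all 11 cultures, and its GR KO and parental tumors overlapped. GC in parental tumors was -1.20, 0.202 and the genotype difference in GC tumors 1.47, 0.141, which passed without parental GC 1 (1.95, adjusted p 0.0306). The C57BL/6 *Mx1* allele is known to lack part of its coding sequence, so the RNA here need not give a working protein.

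*Rsad2*, which encodes viperin, and *Cmpk2*, a mitochondrial nucleotide kinase, lie beside each other at chr12:26442746-26479837 and are usually induced together. *Rsad2* read 187, 97.5, 64.6, 159.8 and 47.8 CPM in parental control, 88.9, 80, 12.4, 90 and 25.1 in parental GC, 305, 524, 226, 324 and 281 in GR KO control and 155, 260.2, 121, 82.5 and 77.3 in GR KO GC tumors. In culture *Rsad2* was 2.41, 4.43 and 2.88, then 1.79 and 0.497 (parental), and 0.208, 0.764 and 0.323, then 0.228, 0.52 and 0.631 (GR KO). No GR KO control tumor was as low as any parental one. *Rsad2* fell in GR KO DMSO cultures (-2.88, 0.0187), lost without parental DMSO 2 or GR KO DMSO 1 or 3 (-2.71 to -2.55, adjusted p 0.0617 to 0.0749). In control tumors it did not pass (1.58, 0.0689) but did without GR KO control 4 (1.58, adjusted p 0.0375), and the difference was 4.44, 0.00118. GC in GR KO tumors was -1.25, 0.0924, passing without GR KO GC 2 (-1.61, adjusted p 0.0438). *Cmpk2* read 120.0, 54.5, 49.9, 111 and 55.6 CPM in parental control, 50.4, 23.2, 13.1, 73.5 and 25.6 in parental GC, 216, 242, 186, 185 and 108 in GR KO control and 115, 108, 95.5, 55.3 and 65.7 in GR KO GC tumors. In culture *Cmpk2* was 2.67, 3.51 and 1.53, then 0.414 and 0.407 (parental), and 0.519, 0.525 and 0.215, then 0.628, 0.0473 and 0.442 (GR KO). The cultures of the DMSO groups were split by genotype without overlap. *Cmpk2* fell in them (-2.59, 0.0437), lost without any 1 of 5 of the 6 libraries (-2.78 to -2.28, adjusted p 0.103 to 0.126), and the difference was 3.84, 0.0008. Genotype in control tumors passed on leaving out GR KO control 4 (1.26, adjusted p 0.0386), and in GC tumors on leaving out parental GC 4 (1.65, adjusted p 0.0413).

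BST2 (tetherin) holds budding virus at the membrane. *Bst2* read 252, 208, 154, 236 and 222 CPM in parental control, 146, 63, 75.6, 41.2 and 58.7 in parental GC, 350.0, 253, 228, 441 and 442 in GR KO control and 219, 269.6, 143, 133 and 246 in GR KO GC tumors. In culture *Bst2* was 16.4, 15.1 and 16.3, then 13.4 and 15.5 (parental), and 7.17, 5.97 and 5.71, then 8.16, 5.58 and 6.44 (GR KO). Every parental GC tumor was below every parental control tumor, and every GR KO culture below every parental culture of the same treatment. *Bst2* was the only member that fell with GC in parental tumors (log2 fold change -1.48, SE 0.289, adjusted p 0.0109; exact permutation p 0.00794), and without *Gm26924*-rich tumors this was -1.40, 0.0315. It passed under all 19 alternatives, at -1.85 to -1.32. In GR KO tumors GC gave -0.76, 0.101, passed by DESeq2 alone. *Bst2* rose in GR KO over parental GC tumors (1.39, 0.0201; without those tumors 1.50, 0.0203), lost without any 1 of 6 of the 10 libraries (1.23 to 1.35, adjusted p 0.0566 to 0.0712), and not in control tumors (0.68, 0.186). In culture it fell in GR KO DMSO (-1.34, 0.00156) and GC (-1.10, 0.00993), the latter lost without parental GC 2 (-0.99, adjusted p 0.112), and the difference was 2.03, 0.00321.

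RTP4 is a chaperone of receptors that type I interferon induces strongly. *Rtp4* read 142, 80, 103, 133 and 68 CPM in parental control, 89.7, 38.5, 23.4, 73.9 and 29.2 in parental GC, 103, 192, 158, 198 and 161 in GR KO control and 118, 176, 147, 95.9 and 129 in GR KO GC tumors. In culture *Rtp4* was 4.94, 6.16 and 5.46, then 4.9 and 4.25 (parental), and 0.779, 0.955 and 1.18, then 1.65, 0.851 and 0.884 (GR KO). All GR KO GC tumors were above all parental GC tumors, and all GR KO cultures below all parental cultures. *Rtp4* rose in GC tumors (1.39, 0.0316; without *Gm26924*-rich tumors 1.48, 0.0431), lost without any 1 of 7 of the 10 libraries (1.20 to 1.42, adjusted p 0.0665 to 0.102). It fell in DMSO cultures (-2.50, 0.000985) and GC cultures (-2.01, 0.00657), the latter lost without parental GC 1 (-1.91, adjusted p 0.0589), and the difference was 3.14, 0.000141. GC in parental tumors did not pass (-1.05, 0.118), and without parental GC 1 (-1.35, adjusted p 0.0321) it did.

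**Figure D4:**
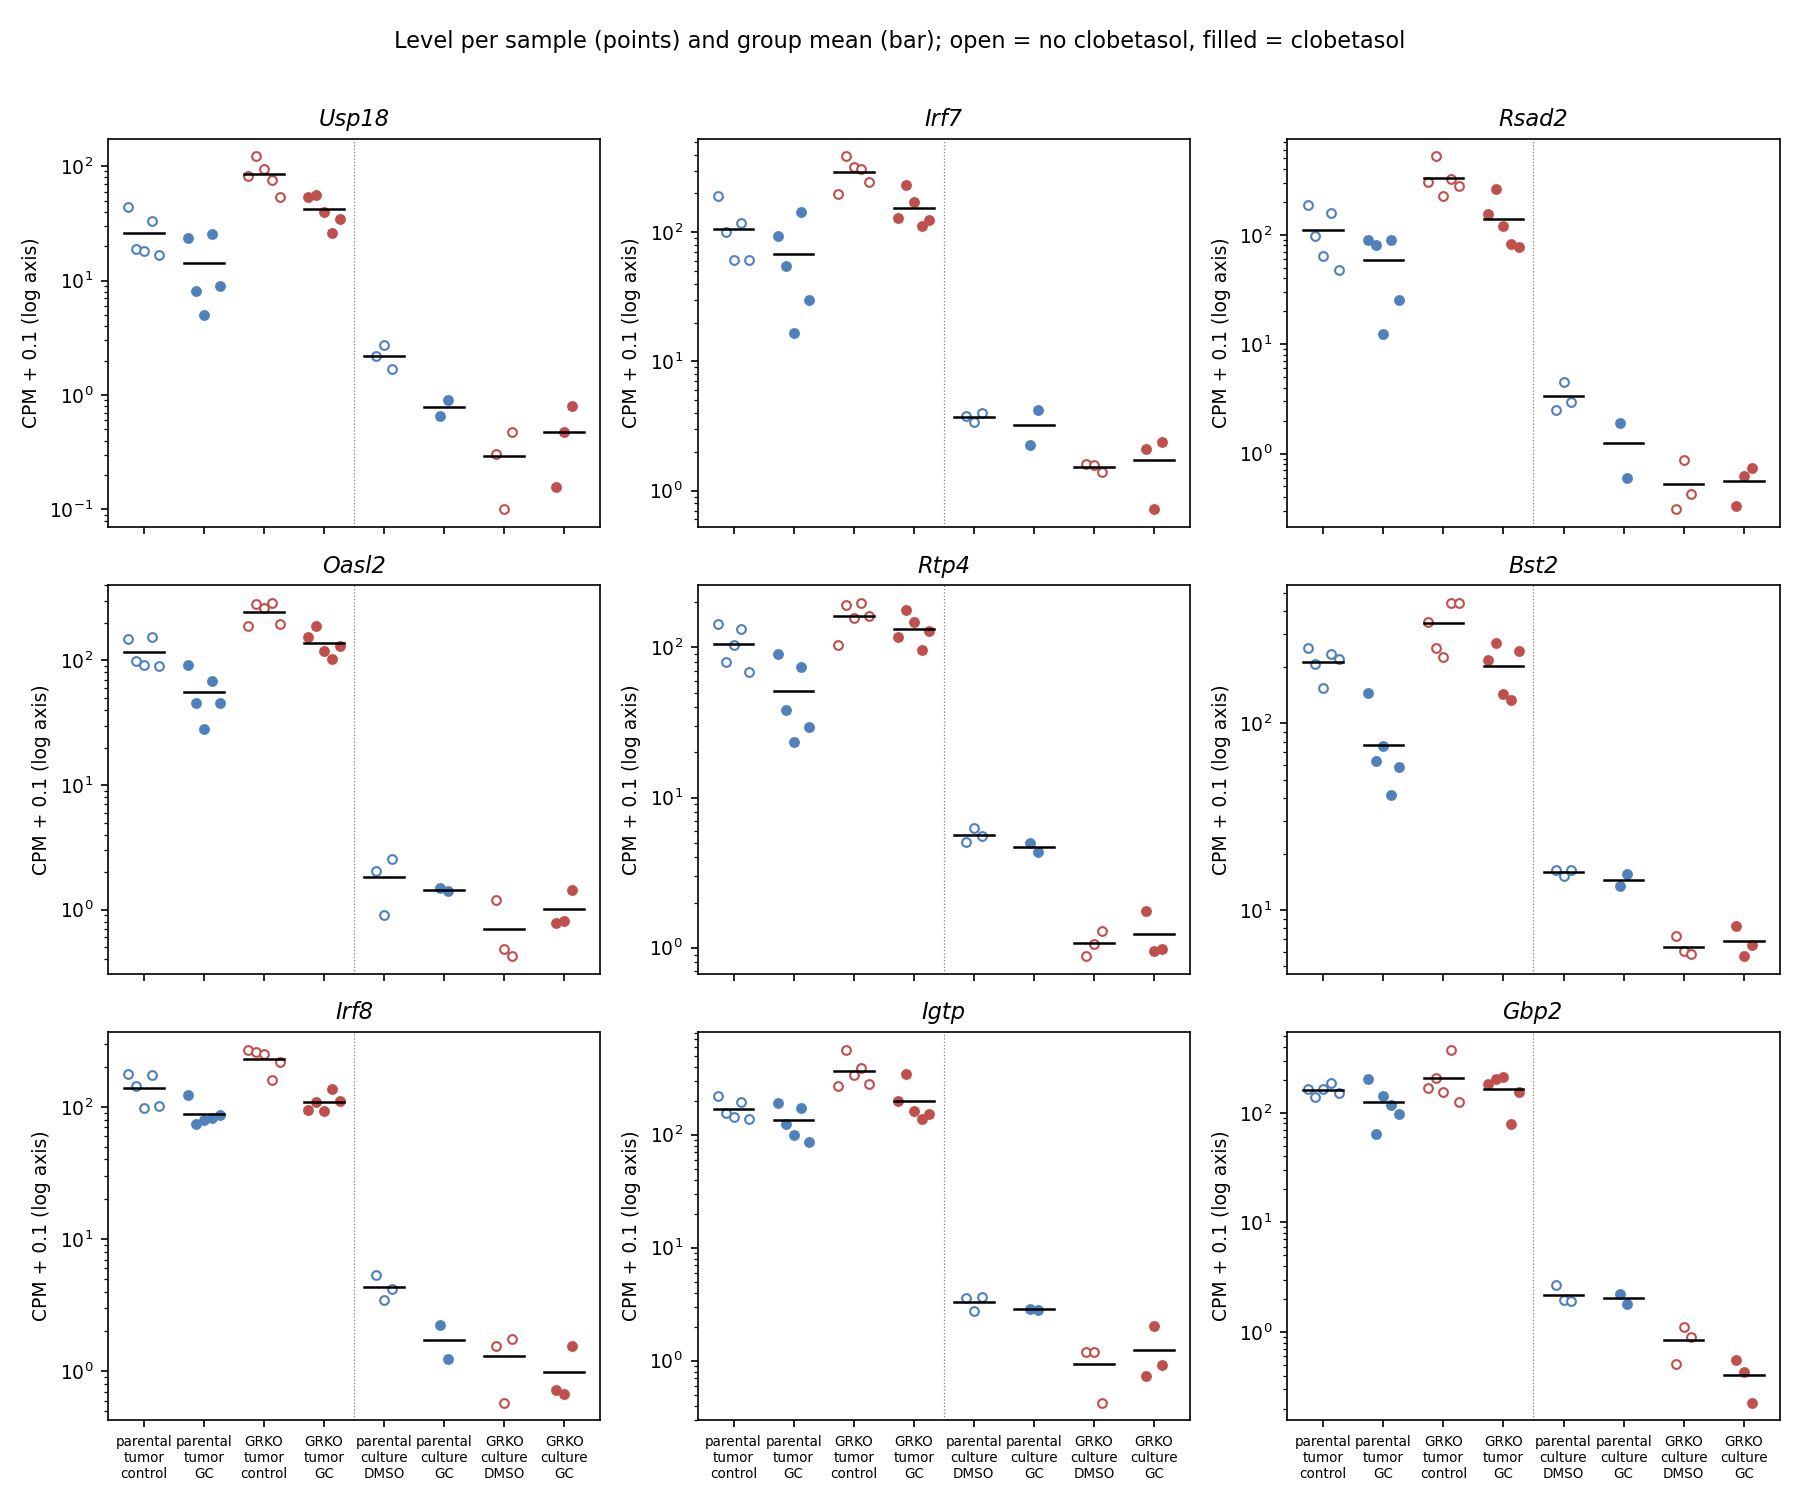
CPM per library of *Usp18*, *Irf7*, *Rsad2*, *Oasl2*, *Rtp4*, *Bst2*, *Irf8*, *Igtp* and *Gbp2*. *Bst2* ran from 154 to 252 CPM in parental control tumors and 41.2 to 146 in parental GC tumors.

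Sensors of viral RNA are themselves induced. *Ddx58* read 91.3, 63.3, 47.2, 80.6 and 38.4 CPM in parental control, 61.3, 46.5, 31.9, 71.4 and 43.7 in parental GC, 59.7, 90.4, 69.6, 113 and 86.5 in GR KO control and 90, 106, 97.1, 63 and 73.5 in GR KO GC tumors. In culture *Ddx58* was 14.3, 12.7 and 15.7, then 13.5 and 14.8 (parental), and 11.7, 9.31 and 8.78, then 8.27, 10.3 and 8.14 (GR KO). RIG-I, which *Ddx58* encodes, was thus carried by cancer cells, a log2 fold change of 2.13 below parental tumors. Tumor groups overlapped, and every GR KO DMSO culture was below every parental one. *Ddx58* passed in no drug or genotype comparison with edgeR (control tumors 0.39, 0.391).

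*Dhx58* read 36.2, 16.7, 18, 37.4 and 17 CPM in parental control, 21.1, 6.96, 4.42, 17.7 and 7.81 in parental GC, 66.6, 55.9, 47.5, 64.7 and 43 in GR KO control and 22.5, 31.9, 29.1, 24.5 and 15.4 in GR KO GC tumors. In culture *Dhx58* was 2.67, 0.185 and 2.06, then 1.45 and 0.452 (parental), and 0.312, 0.477 and 1.02, then 0.285, 0.425 and 1.64 (GR KO). *Dhx58* encodes LGP2, which tunes those sensors, and its GR KO GC tumors were all below its GR KO control tumors. It fell with GC in GR KO tumors (-1.17, 0.0442; without *Gm26924*-rich tumors -1.39, 0.52, with their share as a covariate -1.13, 0.0676). This was lost without any 1 of 7 of the 10 libraries (-1.24 to -1.04, adjusted p 0.0546 to 0.125). Genotype in control tumors was without overlap and did not pass (1.15, 0.0766), and its difference from culture passed without GR KO control 4 or parental DMSO 2 (2.52 to 3.12, adjusted p 0.0151 to 0.0478).

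*Zbp1* read 112, 57.1, 60.1, 95.7 and 35.8 CPM in parental control, 65.9, 36.6, 18.7, 51.4 and 19.9 in parental GC, 136, 273, 155, 239 and 177 in GR KO control and 90.3, 176, 83.6, 55.5 and 97.8 in GR KO GC tumors. In culture *Zbp1* was 0, 0.431 and 0.176, then 0.069 and 0.316 (parental), and 0, 0 and 0, then 0.399, 0 and 0 (GR KO). ZBP1 senses Z-form nucleic acid and can start necroptosis, and its RNA was nearly confined to tumors. *Zbp1* rose in GR KO over parental control tumors (1.44, 0.0348), without overlap; without *Gm26924*-rich tumors the value was 1.95, 0.471. The call was lost without any 1 of 7 of the 10 libraries (1.27 to 1.58, adjusted p 0.053 to 0.101). In GC tumors it was 1.38, 0.0732, passing without parental GC 1 or GR KO GC 4 (1.54 to 1.67, adjusted p 0.0296 to 0.0491), and GC in GR KO tumors was -0.96, 0.095, passing without GR KO GC 2 (-1.26, adjusted p 0.0374). The added difference passed without GR KO control 4 or parental DMSO 1 (6.41 to 7.05, adjusted p 0.0398 to 0.0464). Its fitted size is uncertain, as the GR KO DMSO cultures held 0 reads of *Zbp1*. Control tumors exceeded cultures by a log2 fold change of 8.37 in parental, and of at least 10.3 in GR KO, where no DMSO culture held a read.

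TRIM25 is the ubiquitin and ISG15 ligase that activates RIG-I. *Trim25* read 175, 127, 105, 162 and 134 CPM in parental control, 98.1, 134, 68.1, 182 and 91 in parental GC, 263, 396, 346, 202 and 189.7 in GR KO control and 146, 184, 115, 142 and 106 in GR KO GC tumors. In culture *Trim25* was 66, 62.7 and 58.9, then 49.7 and 63.8 (parental), and 49.1, 41.9 and 46.4, then 39.5, 54 and 47.5 (GR KO). The culture level was 45.8% of the tumor level in parental, the highest of the members there, and 16.9% in GR KO. *Trim25* rose in GR KO over parental control tumors (0.99, 0.0399) and fell with GC in GR KO tumors (-1.01, 0.0205), both without overlap. The values were 0.63, 0.987 and -0.56, 0.808 without *Gm26924*-rich tumors. The former was lost without any 1 of 8 of the 10 libraries (0.83 to 1.08, adjusted p 0.0558 to 0.126), the latter without GR KO control 2 or GR KO GC 3 or 5 (-0.95 to -0.85, adjusted p 0.0636 to 0.0671). The added difference was 1.44, 0.013, lost without GR KO DMSO 2 (1.41, adjusted p 0.0528).

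*Ifi35* read 115, 63, 65.3, 66.8 and 65 CPM in parental control, 50.1, 90.8, 34, 128 and 41 in parental GC, 210.1, 228, 186, 110.1 and 136 in GR KO control and 62.2, 122, 64.7, 69.3 and 59.4 in GR KO GC tumors. In culture *Ifi35* was 21.3, 29.1 and 18.4, then 17.5 and 26.4 (parental), and 13, 11.3 and 14.1, then 11.9, 19.8 and 20.7 (GR KO). *Ifi35*, whose product partners NMI, has 2 tumors apart: parental control 1 and GR KO GC 2, each well above its group. It rose in GR KO over parental control tumors (1.21, 0.0429) and fell with GC in GR KO tumors (-1.21, 0.0256). Without *Gm26924*-rich tumors these were 0.77, 0.989 and -0.52, 0.893, with 1 GR KO control tumor left. The former was lost without any 1 of 8 of the 10 libraries (1.10 to 1.29, adjusted p 0.0539 to 0.117), the latter without any 1 of 5 of the 10 libraries (-1.15 to -1.09, adjusted p 0.0627 to 0.0746). In culture it held 31.5% (parental) and 7.597% (GR KO) of the tumor level, and the difference of genotype was 2.05, 0.00658.

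*Ifi44* read 212, 118, 93.3, 244 and 75.5 CPM in parental control, 151, 49.9, 25, 61.8 and 33.1 in parental GC, 216, 335, 248, 439 and 210.4 in GR KO control and 249.9, 295, 158, 75.2 and 149.8 in GR KO GC tumors. In culture *Ifi44* was 2.34, 2.59 and 3.53, then 2.21 and 2.98 (parental), and 1.56, 0.621 and 0.592, then 0.285, 0.473 and 1.33 (GR KO). *Ifi44*, a cytoplasmic antiviral protein gene, passed in no comparison within tumors or cultures with edgeR (control tumors 0.96, 0.203, DMSO cultures -1.60, 0.107). All parental DMSO cultures were above all GR KO DMSO cultures. The difference was 2.58, 0.0459. *Parp14* read 49.3, 56, 21.2, 50.4 and 15.1 CPM in parental control, 47.5, 39.9, 22.3, 50.5 and 32 in parental GC, 46.5, 81.9, 67.6, 58.4 and 87.1 in GR KO control and 59.4, 91.2, 55.8, 34 and 36.3 in GR KO GC tumors. In culture *Parp14* was 3.06, 4.19 and 3, then 3.1 and 4.11 (parental), and 1.3, 0.907 and 1.35, then 1.37, 3.12 and 3.09 (GR KO). *Parp14*, an ADP-ribosyltransferase gene, overlapped between tumor groups. It fell in GR KO DMSO cultures (-1.53, 0.0304), lost without any 1 of 5 of the 6 libraries (-1.63 to -1.34, adjusted p 0.0613 to 0.132), with a difference of 2.35, 0.00905.

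*Xaf1* read 9.87, 5.57, 1.59, 4.11 and 1.45 CPM in parental control, 4.24, 7.8, 3.45, 7.88 and 2.45 in parental GC, 4.69, 11.7, 3.07, 6.06 and 22.7 in GR KO control and 6.82, 9, 11.6, 6.09 and 7.76 in GR KO GC tumors. In culture *Xaf1* was 2.08, 1.23 and 0.411, then 0.897 and 0.904 (parental), and 0, 0.382 and 0.162, then 0.285, 0.189 and 0.505 (GR KO). XAF1 favors apoptosis, and its cultures held 28.2% (parental) and 1.93% (GR KO) of the tumor level. *Xaf1* passed in no drug or genotype comparison with edgeR (DMSO cultures -2.70, 0.0942), and the difference was 3.80, 0.0261, lost without any 1 of 5 of the 16 libraries (3.21 to 3.80, adjusted p 0.0528 to 0.0993).

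Among IFN-γ members IRF1 comes first, made within hours of the signal. *Irf1* read 120.2, 196, 162, 218 and 253 CPM in parental control, 139, 30.6, 107, 27.7 and 83.3 in parental GC, 203, 161, 254, 400.1 and 187 in GR KO control and 210.5, 142, 102, 105 and 187 in GR KO GC tumors. In culture *Irf1* was 42.6, 24.6 and 47, then 27.5 and 26.7 (parental), and 26.7, 26.2 and 22.5, then 19.1, 24.5 and 14.3 (GR KO). Parental GC tumors 2 and 4 were far below parental control tumors, and parental GC tumor 1 was within them. *Irf1* passed in no drug or genotype comparison with edgeR (GC in parental tumors -1.29, 0.104). That one passed without parental GC 1 (-1.60, adjusted p 0.0378). In DMSO cultures it was -0.60, 0.161, passing without parental DMSO 2 (-0.82, adjusted p 0.0404).

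*Irf8* read 177, 145, 98.1, 174 and 102 CPM in parental control, 122, 74.3, 78.9, 82.1 and 86.7 in parental GC, 272, 259.8, 249, 159 and 217 in GR KO control and 95, 109, 92.6, 135 and 110.0 in GR KO GC tumors. In culture *Irf8* was 5.21, 3.39 and 4.11, then 2.14 and 1.13 (parental), and 1.45, 0.477 and 1.67, then 0.628, 0.567 and 1.45 (GR KO). IRF8 is induced by IFN-γ and is also a lineage factor of dendritic and myeloid cells, so a tumor's *Irf8* can follow either. Every GR KO GC tumor was below every GR KO control tumor. It fell there (log2 fold change -1.09, SE 0.207, adjusted p 0.00439), with the share of *Gm26924* as a covariate -0.90, 0.00699 and without the tumors rich in it -0.65, 0.64; that was the only one of 19 alternatives that lost the call. In parental tumors GC gave -0.65, 0.156. Genotype in control tumors did not pass (0.73, 0.0598) but did without GR KO control 4 (0.84, adjusted p 0.015), and the difference from culture was 2.55, 0.000215.

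*Socs1* read 3.12, 2.06, 8.39, 7.74 and 6.41 CPM in parental control, 2.19, 0.209, 2.34, 0.591 and 0.741 in parental GC, 4.47, 0.478, 3.76, 12.2 and 0.737 in GR KO control and 5.98, 0.916, 3.73, 0.583 and 12.7 in GR KO GC tumors. In culture *Socs1* was 1.04, 1.35 and 0.823, then 1.45 and 1.54 (parental), and 1.35, 1.86 and 0.538, then 2.28, 0.662 and 0.252 (GR KO). SOCS1 is the feedback inhibitor of JAK kinases. *Socs1* was low everywhere and passed in no comparison with edgeR and all libraries, although in GC-treated parental tumors it was mostly under 1 CPM (GC -2.18, 0.232). DESeq2 passed it in parental tumors against cultures.

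Guanylate-binding proteins attack membranes of pathogens. *Gbp2* read 163, 139, 166, 189 and 152 CPM in parental control, 201, 64.1, 143, 119 and 97.7 in parental GC, 167, 208, 154, 378 and 124 in GR KO control and 183, 203, 211, 78.4 and 155 in GR KO GC tumors. In culture *Gbp2* was 2.6, 1.85 and 1.82, then 2.14 and 1.72 (parental), and 0.416, 1 and 0.808, then 0.456, 0.331 and 0.126 (GR KO). *Gbp2* overlapped between all tumor groups and was low in culture, lower in every GR KO than in every parental culture. It fell in GR KO GC cultures (-2.62, 0.0213), lost without parental GC 1 or 2 or GR KO GC 2 or 3 (-2.77 to -2.28, adjusted p 0.0628 to 0.128). The difference did not pass (1.85, 0.0513), but passed without parental control 4 or GR KO control 3, 4 or 5 (1.50 to 1.99, adjusted p 0.0317 to 0.0472). *Gbp7* read 117, 131, 45.8, 91.8 and 47.7 CPM in parental control, 138, 84.1, 95.1, 112 and 92.8 in parental GC, 82.1, 95.5, 63.8, 109.9 and 82.5 in GR KO control and 132, 157, 177, 88.9 and 97.6 in GR KO GC tumors. In culture *Gbp7* was 9.63, 10.2 and 8.05, then 6.55 and 5.61 (parental), and 1.35, 1.67 and 3.5, then 2.34, 1.42 and 4.67 (GR KO). Tumors overlapped and cultures split by genotype. *Gbp7* fell in GR KO DMSO cultures (-2.09, 0.0133), lost without GR KO DMSO 1 or 2 (-1.93 to -1.85, adjusted p 0.0632 to 0.0688), and the difference was 2.10, 0.00949, lost without GR KO DMSO 1 (1.86, adjusted p 0.0534).

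*Gbp4* read 31.2, 29.4, 48.1, 77.1 and 45.8 CPM in parental control, 47.3, 7.07, 27.7, 15.3 and 17.6 in parental GC, 28.1, 36.6, 83.4, 160.4 and 21.1 in GR KO control and 78.7, 41.7, 58.7, 9.69 and 50.1 in GR KO GC tumors. In culture *Gbp4* was 0.455, 0.246 and 0.235, then 0 and 0 (parental), and 0.156, 0.0955 and 0.592, then 0.342, 0.331 and 0 (GR KO). *Gbp4* passed in no drug or genotype comparison with either tool (control genotype 0.51, 0.606). Parental control tumors exceeded DMSO cultures in *Gbp4* by a log2 fold change of 7.15.

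The gene listed as *Gbp5* carries the identifier that a later annotation names *Gbp2b*, and that listed as *Gbp6* the identifier of *Gm43302*. *Gbp5* read 6.31, 6.33, 9.21, 7.04 and 2.5 CPM in parental control, 5.67, 9.21, 4.6, 7.09 and 7.81 in parental GC, 6.45, 12.1, 8.06, 8.11 and 8.11 in GR KO control and 4.01, 9.27, 5.44, 5.08 and 7.4 in GR KO GC tumors. In culture *Gbp5* was 0, 0 and 0.0588, then 0.483 and 0.136 (parental), and 0 in all GR KO cultures. It was low in tumors and near absent from culture, and passed in no drug or genotype comparison with either tool (control genotype 0.45, 0.467). These values cannot be read as those of the genes now called *Gbp5* and *Gbp6*.

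Immunity-related GTPases are classic IFN-γ targets in mouse. *Igtp* read 218, 154, 143, 195 and 137 CPM in parental control, 188, 123, 99.1, 173 and 85.2 in parental GC, 270.0, 566, 337, 386 and 282 in GR KO control and 197, 342, 161, 136 and 150.4 in GR KO GC tumors. In culture *Igtp* was 3.45, 2.65 and 3.53, then 2.76 and 2.71 (parental), and 1.09, 1.1 and 0.323, then 0.628, 1.94 and 0.82 (GR KO). Every GR KO control tumor was above every parental control tumor. *Igtp* was the only IFN-γ member that rose there (log2 fold change 1.12, SE 0.271, adjusted p 0.0331), and it fell with GC in GR KO tumors (-0.90, 0.0465) and in GR KO DMSO cultures (-1.92, 0.0429). Without *Gm26924*-rich tumors the tumor values were 1.31, 0.592 and -0.86, 0.614. The calls were lost without any 1 of 6 of the 10 libraries (0.91 to 1.21, adjusted p 0.0535 to 0.112) for genotype in tumors, any 1 of 7 of the 10 libraries (-0.99 to -0.69, adjusted p 0.0577 to 0.149) for GC, and any 1 of 6 of the 6 libraries (-2.17 to -1.55, adjusted p 0.0682 to 0.11) in culture. The difference was 3.04, 0.000274.

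*Iigp1* read 130.1, 286, 102, 188 and 148 CPM in parental control, 308, 92.5, 178, 114 and 129.7 in parental GC, 89.8, 183, 197, 361 and 170.1 in GR KO control and 325, 273, 278, 74.9 and 196 in GR KO GC tumors. In culture *Iigp1* was 2.28, 0.862 and 0.881, then 0.759 and 0.678 (parental), and 0, 0 and 0.215, then 0.285, 0 and 0.252 (GR KO). *Iigp1* overlapped between all tumor groups, and GR KO cultures held few reads of it. It fell in GR KO DMSO cultures (-4.14, 0.0498), lost without any 1 of 5 of the 6 libraries (-4.37 to -3.54, adjusted p 0.0644 to 0.169), and the difference was 4.41, 0.0131, lost without parental DMSO 1 or GR KO DMSO 1 or 2 (3.80 to 3.88, adjusted p 0.0612 to 0.0685). *Irgm2* read 2.29, 3.93, 6.58, 7.47 and 12 CPM in parental control, 6.07, 0.471, 4.15, 0.886 and 1.99 in parental GC, 0.366, 2.99, 8.68, 11.4 and 6.94 in GR KO control and 11.7, 5.07, 5.04, 5.35 and 23 in GR KO GC tumors. In culture *Irgm2* was 0.0651, 0 and 0.588, then 0.966 and 0.452 (parental), and 0.0519, 0.668 and 0, then 0, 0.0473 and 0 (GR KO). *Tgtp1* read 0.637, 0.24, 0, 0.0541 and 0 CPM in parental control, 1.28, 0.314, 0.442, 0.0492 and 0.228 in parental GC, 0, 1.79, 1.71, 1.27 and 0.86 in GR KO control and 1.2, 1.02, 1.75, 0.794 and 0.409 in GR KO GC tumors. No culture held a read of *Tgtp1*. *Tgtp1* was at most 1.79 CPM in any tumor. GR KO over parental GC cultures gave -4.82 for *Irgm2*, with 1 count in GR KO against 24 in parental. Neither gene passed in a drug or genotype comparison (control genotype *Irgm2* -0.08, 0.96, *Tgtp1* 2.60, 0.224). *Oas1a*, *Mx2*, *Ifih1*, *Gbp3*, *Gbp6* and *Irgm1* passed in none with edgeR either.

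Outside the 42, 50 further interferon-stimulated genes were listed and 48 were in the table, 45 tested in tumors and 35 in culture. In GR KO over parental control tumors 2 were higher (*Psmb10* and *Znfx1*; 1.26% of all genes) and 1 lower (*Ifi27*; 0.986%). GC in GR KO tumors gave 1 higher (*Ifi27*; 2.71%) and 3 lower (*Samhd1*, *Psmb10* and *Znfx1*; 3.71%). None of these 7 calls was left without *Gm26924*-rich tumors. GC in parental tumors gave 0 with edgeR (0.779% of all genes), 2 with DESeq2 and 11 at an unadjusted p under 0.05 (14.1%), and genotype in GC tumors 0 (0.634%), 4 and 18 (11.4%), with 4 higher in edgeR without *Gm26924*-rich tumors. Called or not, 38 of 45 were higher in GR KO control tumors (47.3% of all genes; median 0.41) and 40 in GR KO GC tumors (50.8%; 0.50). In DMSO cultures 16 were lower DEGs in GR KO (6.04%; median -1.24) and in GC cultures 11 (3.78%), and the difference between tumors and cultures gave 19 higher (4.25%), 15 of them kept without those tumors.

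*Psmb8*, a subunit of the immunoproteasome that both interferons induce, had the smallest adjusted p of these in both culture genotype comparisons. It held 30.3 to 291 CPM in tumors, 3.98 to 7.76 in parental cultures and at most 0.215 in GR KO cultures. *Psmb8* fell in GR KO DMSO cultures (-5.65, 6.24e-05) and GC cultures (-7.48, 6.19e-05), and the difference from tumors was 5.69, 2.75e-05.

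Host cells in the tumors were read from marker lists, each summed per library, and the part of any of these cells in the member levels was not tested. The 4 leukocyte genes (*Ptprc*, *Laptm5*, *Coro1a* and *Cd52*) summed to 1246, 1014, 984, 1246 and 950.4 CPM in parental control tumors, 952, 894, 519.5, 1211 and 669 in parental GC, 2796, 2061, 1858, 1642 and 1699 in GR KO control and 857, 1088, 802, 851 and 901 in GR KO GC tumors. All GR KO control tumors were above all other tumors. Cultures held at most 0.856 CPM, and *Cd52* had 0 reads in all 11. *Laptm5*, the most abundant in parental tumors, rose in GR KO over parental control tumors (log2 fold change 0.99, adjusted p 0.0309) and fell with GC in GR KO tumors (-1.34, 0.00284). *Cd52*, the most abundant in GR KO tumors, fell with GC in GR KO tumors (-1.08, 0.0167), and *Coro1a* in parental tumors (-1.29, 0.0371). None passed without *Gm26924*-rich tumors: *Laptm5* 0.34 (adjusted p 1) and -0.63 (0.622), *Cd52* -1.07 (0.522) and *Coro1a* -1.30 (0.0738).

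The 10 T and NK cell genes summed to 60.6 to 112 CPM in parental control, 43.9 to 90.6 in parental GC, 76.8 to 182 in GR KO control and 44.3 to 99.9 in GR KO GC tumors, with *Nkg7* highest in most groups, and at most 0.0588 CPM in any culture. The 7 dendritic cell genes gave 79.4 to 136, 53.9 to 116, 118 to 211 and 56.3 to 76.3 CPM in the same order, *Itgax* being the most abundant. Both lists overlapped between genotypes. *Itgax* rose in GR KO over parental control tumors (1.12, 0.0342) and fell with GC in GR KO tumors (-1.80, 0.00116), with 1.03 (0.879) and -1.72 (0.197) without *Gm26924*-rich tumors. The 8 myeloid genes in the table summed to 1119.6 to 2350.0, 1069 to 2012, 896 to 1927 and 1310.4 to 1833 CPM in the same order, with *Lyz2* or *Csf1r* highest. Cultures held 2.09 to 10.8 CPM, and myeloid sums overlapped between genotypes.

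The 5 endothelial genes summed to 67.1, 53.6, 48.5, 69.6 and 51.1 CPM in parental control tumors, 36.4, 18.6, 28.2, 35.2 and 35.7 in parental GC, 102, 83.9, 105, 105 and 84.9 in GR KO control and 51.9, 58.8, 49.5, 46.7 and 51.8 in GR KO GC tumors. These sums did not overlap in any of the 4 drug and genotype comparisons and went the way of the type I members in each. Among them *Kdr* rose in GR KO over parental control tumors (0.98, 0.0472) and fell with GC in GR KO tumors (-1.32, 0.00567), with 0.95 (0.911) and -1.20 (0.444) without *Gm26924*-rich tumors. Neutrophil sums were 22.7 to 1277 CPM in parental control, 10.1 to 38.76 in parental GC, 178 to 1022 in GR KO control and 49.8 to 229 in GR KO GC tumors. Keratinocyte sums were 789 to 2800, 906 to 1198, 1294 to 3618 and 700 to 1524 CPM in the same order, and fibroblast sums 2428 to 2942, 3549 to 4163, 2058 to 3094 and 3098 to 4182.

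The 7 melanocyte lineage genes, a check of the cell line itself, gave 30.3 to 55.9, 35.8 to 53.6, 25.7 to 39.7 and 26.7 to 53.9 CPM in the same order, with *Mitf* highest in every tumor. Cultures held 9.24 to 11.9 CPM (parental) and 3.10 to 5.68 (GR KO), with 0 reads of *Dct*, *Tyr*, *Mlana* and *Sox10*, so these genes cannot follow the share of cancer cells.

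Promoters were searched for the sites through which the 2 pathways act, in the 250 bases before each gene start, on both strands. The ISRE-like core was spelled GAAANNGAA and the GAS core TTCNNNGAA, N being any base. Of the 42 members 31 could be matched to 36 promoters. The ISRE-like core was in 19 of these (52.8%), against 2342 of 32851 promoters of all genes (7.13%), and the GAS core in 9 (25%) against 2306 (7.02%). By gene, 10 of 20 type I members held the ISRE-like core and 3 the GAS core, and of 11 IFN-γ members 9 and 6. A match is a description of sequence and shows neither binding nor use. Both classes held ISRE-like cores, so the core alone does not separate them.

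Some of these stretches are shown 5′ to 3′ on the gene's own strand (GRCm38.p6), ending just before the gene start. The *Bst2* stretch ends a short gap before its start in GENCODE (71537456). Matches to either core on either strand are in capitals. *Isg15* is chr4:156200819-156200958 (minus strand, 3 ISRE-like matches), *Ifit1* chr19:34640749-34640870 (plus, 3) and *Bst2* chr8:71537473-71537612 (minus, 2 and 1 GAS match). *Irf1* is chr11:53769874-53770013 (plus, 1 GAS match) and *Igtp* chr11:58199416-58199555 (plus, 1 of each).
Isg15: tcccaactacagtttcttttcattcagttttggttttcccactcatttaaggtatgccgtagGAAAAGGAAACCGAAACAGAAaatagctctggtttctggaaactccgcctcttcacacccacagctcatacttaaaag
Ifit1: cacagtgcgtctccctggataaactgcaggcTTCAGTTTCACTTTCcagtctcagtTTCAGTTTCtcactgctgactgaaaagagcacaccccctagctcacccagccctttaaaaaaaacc
Bst2: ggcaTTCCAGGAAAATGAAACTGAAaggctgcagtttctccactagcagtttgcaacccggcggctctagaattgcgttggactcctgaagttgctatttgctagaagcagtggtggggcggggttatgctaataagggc
Irf1: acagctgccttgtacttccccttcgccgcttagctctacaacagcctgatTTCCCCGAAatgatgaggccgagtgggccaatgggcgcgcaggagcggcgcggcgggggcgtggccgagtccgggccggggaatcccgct
Igtp: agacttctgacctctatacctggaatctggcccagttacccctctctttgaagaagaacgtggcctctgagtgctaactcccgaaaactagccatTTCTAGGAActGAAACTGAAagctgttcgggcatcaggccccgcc

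The 3′ ends of *Gbp4*, *Igtp*, *Irf8* and *Tgtp1* overlap another gene on the same strand (*Gbp8* and *Gbp9*, *Irgm2*, *Gm20388* and *Gm12185*), and those of *Dhx58*, *Irf7*, *Usp18* and *Tgtp1* a gene on the opposite strand. Whether the counts were made by strand, which bears only on opposite-strand overlaps, is not stated. How a read shared by overlapping genes was handled is not stated either. For these members a read may thus be missing or belong to a neighbor.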

How the data were processed

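The units are raw counts. Per the labels, the authors made QuantSeq 3′ FWD libraries, sequenced them on a NovaSeq, trimmed reads with Trim Galore 0.6.5, aligned them to mm10 with STAR 2.6.1d and counted them against Ensembl release 75 with featureCounts before they deposited the table; strand setting and counter version are not stated. From these counts CPM were computed with TMM factors in edgeR 4.0.16 (R 4.3.3, limma 3.58.1). Genes with at least 0.5 CPM in at least 3 samples entered quasi-likelihood fits of the 20 tumors (15919 genes), the 11 cultures (12525) and all 31 libraries (16273). P values were adjusted by Benjamini-Hochberg over all genes of a fit, and a DEG had adjusted p under 0.05 and a fold of at least 1.5. DESeq2 1.42.0 was the alternative test. Exact permutation p values compare group means of log2(CPM + 1) over all relabelings.

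The 42 members were matched by symbol. Members that were DEGs in a drug or genotype comparison, the regulators *Stat2*, *Irf1*, *Irf7*, *Irf8*, *Irf9*, *Socs1* and *Usp18*, the 3 members of each class with the largest GC changes in tumors and the 10 extremes of tumors against cultures were named with their tests, 35 members; of the other 7 only *Ifi44* is given per library. Further lists held 28 ligands, receptors, transducers and sensors, 50 other interferon-stimulated genes, and markers of leukocytes, T and NK cells, dendritic cells, myeloid cells, neutrophils, endothelium, fibroblasts, keratinocytes and melanocyte lineage; B cell and muscle lists were summed and are not described. 1 further gene listed beforehand is not reported here. The members and lists were chosen with earlier results of these data known. The treatment of *Gm26924* and the difference of genotype between tumors and cultures were chosen after seeing the data. The fitting code was tried on simulated counts with known answers. Promoters and gene names came from RefSeq and GENCODE on GRCm38.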

Additional observations from a re-analysis of the deposited data

Results flagged for a closer look

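5 of 152 member and group sets of tumors held 1 tumor far from its 4 fellows by a Dixon test at 1 in 20, where 7.6 would be expected at that rate. *Ifi35* was 121.876 CPM in GR KO GC tumor 2 (others 59.4 to 69.3) and 115.146 in parental control tumor 1 (others 63.0 to 66.8). *Isg15* was 20.2855 CPM in GR KO GC tumor 4 (others 74.3 to 117) and 44.7593 in parental GC tumor 1 (others 6.39 to 11). *Stat2* was 52.6953 CPM in GR KO control tumor 1 (others 93.7 to 109).

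The genotype log2 fold change differed between control tumors and DMSO cultures in 22 members, higher in tumors in each, in the added edgeR contrast. The differences were 1.68 (*Stat2*), 2.82 (*Irf7*), 5.16 (*Usp18*), 2.76 (*Ifit1*), 3.18 (*Ifit3*), 6.61 (*Oas2*), 6.29 (*Oas3*), 3.38 (*Oasl1*), 2.61 (*Oasl2*), 4.44 (*Rsad2*), 2.03 (*Bst2*) and 2.58 (*Ifi44*). The remaining ones were 2.05 (*Ifi35*), 3.80 (*Xaf1*), 1.44 (*Trim25*), 2.35 (*Parp14*), 3.14 (*Rtp4*), 3.84 (*Cmpk2*), 2.55 (*Irf8*), 2.10 (*Gbp7*), 4.41 (*Iigp1*) and 3.04 (*Igtp*). *Oas2* had 0 reads in GR KO DMSO cultures, so the size of its fitted value is uncertain.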

How the results depend on the processing

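No call was reversed. Of 7293 alternative values of 425 named results, 6901 kept their side of the threshold, 248 lost a call and 144 gained one. Many named results were never calls, so a kept side is often a non-call that stayed one, and 200 such values changed sign. Calls held unevenly. *Bst2* with GC in parental tumors was called in 19 of 19 alternatives. *Igtp* with GC in GR KO tumors and *Ifi35* for genotype in control tumors were called in 9 of 19 each. DESeq2 gave 6 member DEGs against 1 for GC in parental tumors, 11 against 5 for GC in GR KO tumors, 15 against 7 and 13 against 6 for genotype in control and GC tumors, and 1 against 0 for GC in parental cultures. With no filter beyond 1 count GC in parental tumors gave 2. With at least 10 counts in every sample it gave 2 too, genotype gave 7 in DMSO and 2 in GC cultures (18 members tested), and tumors against cultures 17 in parental, 17 in GR KO and 11 in the added difference (17 tested). Fits of only the 2 groups compared gave 8 for GC in GR KO tumors (391 of 14928 genes) and 2 for genotype in GC tumors (129 of 15074). In GC cultures such a fit gave 0 of 24 members tested for genotype (230 of 11692 genes). With the *Gm26924* share as a covariate the tumor counts were 3, 2, 0 and 10, and without *Gm26924*-rich tumors GC in GR KO tumors and genotype in control tumors gave 0. Leaving out single libraries gave 1 to 7 DEGs for GC in parental and 1 to 9 in GR KO tumors, 0 to 12 for genotype in control and 0 to 12 in GC tumors, 0 to 1 for the difference of GC effects in tumors, and 4 to 8 in DMSO and 2 to 5 in GC cultures for genotype; it moved no other count by over 1.5 times. No minimum fold, a minimum of 2, DESeq2 size factors and removal of *Gm26924* moved no count by that much. With the *Gm26924* share as a covariate, GC in parental and GR KO tumors gave 329 and 626 DEGs of all genes. Genotype in control and GC tumors gave 69 and 225. The all-gene median of the added difference was -0.29 with library totals alone and 0.11 with DESeq2.

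Samples share a number between groups, and culture names also 1 date and a letter that follows the number. A replicate block gave 3, 8, 12 and 13 DEGs in the 4 tumor comparisons (GC in parental and GR KO, genotype in control and GC tumors). It gave 8 for genotype in DMSO and 3 in GC cultures. DEGs of all genes were 164, 994, 363 and 160 in those tumor comparisons (15919 tested). In those culture comparisons they were 829 and 538 (12525 tested). Samples of the same number correlated at a mean of 0.0583 in tumors (30 pairs, 7 of 20 best with their own number) and 0.0198 in cultures (15 pairs, 3 of 11), a hint from the data and not the design.

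GR KO is 1 clone, GR KO control tumors are mostly *Gm26924*-rich, and low counts in culture (a floor of 0.136 to 0.207 CPM) limit what can be seen there. Replicates of a culture group may not be independent. Bulk RNA does not separate host from cancer cells in tumors.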
